A study of Mus musculus with 44 samples.

Results

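The genes described here encode the subunits, assembly chaperones and activators of the proteasome in mouse ovarian follicles exposed to perfluorononanoic acid (PFNA), a long-lived fluorinated surfactant. They were taken as all rows whose gene symbol is Psma, Psmb, Psmc, Psmd, Psme, Psmf or Psmg followed by a number. The rule gave 48 genes in each of the 2 deposited tables, of 22674 genes in the maturation table and 18274 in the ovulation table. Follicles of wild-type CD-1 mice, an outbred strain, were exposed either while they matured under gonadotropin or while ovulation was induced with human chorionic gonadotropin (hCG). The maturation window had 11 control libraries, which received DMSO (the solvent), and 10 PFNA libraries. The ovulation window had 12 control libraries, which received hCG, and 11 libraries that received hCG and PFNA. The dose, the exposure time and the age of the mice are not given in the labels. Nothing in the labels says that the libraries come from separate animals, so the p-values below measure the spread between these libraries only.

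The proteasome degrades proteins that have been tagged with ubiquitin. Its barrel-shaped core is built from rings of alpha subunits, which gate the entry, and rings of beta subunits, some of which carry the cutting sites. A regulatory particle, made of a base with ATPases and a lid, binds the tagged protein, removes the ubiquitin and feeds the unfolded chain into the core. In oocytes the complex removes cyclin B during meiosis, and in many cell types interferon exchanges the cutting subunits for those of the immunoproteasome, which favours peptides for antigen presentation.

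The promoters of 4 members are printed first. They are Psmd13 and Psmd6, which showed the largest falls in the ovulation window, and Psmb9 and Psmb11, which showed the largest rises there. Each run is 300 bases, from 250 before to 50 after the RefSeq start, on GRCm38.p6, and reads 5′ to 3′ on the gene's strand. The windows are chr7:140882144-140882443 on the plus strand for Psmd13, chr14:14120896-14121195 on the minus strand for Psmd6, chr17:34187281-34187580 on the minus strand for Psmb9 and chr14:54625060-54625359 on the plus strand for Psmb11. Capitals mark matches, on either strand, to the antioxidant response element core TGANNNNGC, bound by NFE2L1 and NFE2L2, the activators of proteasome and oxidative stress genes, and to the CCAAT box.
Psmd13: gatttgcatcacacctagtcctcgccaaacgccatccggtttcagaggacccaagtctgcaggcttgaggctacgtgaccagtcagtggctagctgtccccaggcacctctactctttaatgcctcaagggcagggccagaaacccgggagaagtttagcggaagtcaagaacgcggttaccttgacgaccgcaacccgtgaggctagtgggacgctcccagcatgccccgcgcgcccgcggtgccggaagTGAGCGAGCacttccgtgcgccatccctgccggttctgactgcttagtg
Psmd6: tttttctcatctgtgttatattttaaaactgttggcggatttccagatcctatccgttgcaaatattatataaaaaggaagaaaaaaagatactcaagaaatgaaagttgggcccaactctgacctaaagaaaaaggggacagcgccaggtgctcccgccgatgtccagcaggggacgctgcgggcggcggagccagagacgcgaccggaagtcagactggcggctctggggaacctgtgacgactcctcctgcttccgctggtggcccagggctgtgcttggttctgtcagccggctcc
Psmb9: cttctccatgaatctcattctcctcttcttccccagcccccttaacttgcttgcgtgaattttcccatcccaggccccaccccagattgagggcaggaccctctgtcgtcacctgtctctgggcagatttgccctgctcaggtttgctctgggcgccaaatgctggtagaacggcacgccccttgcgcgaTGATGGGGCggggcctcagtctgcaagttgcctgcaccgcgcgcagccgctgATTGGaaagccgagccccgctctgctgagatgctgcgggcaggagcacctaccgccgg
Psmb11: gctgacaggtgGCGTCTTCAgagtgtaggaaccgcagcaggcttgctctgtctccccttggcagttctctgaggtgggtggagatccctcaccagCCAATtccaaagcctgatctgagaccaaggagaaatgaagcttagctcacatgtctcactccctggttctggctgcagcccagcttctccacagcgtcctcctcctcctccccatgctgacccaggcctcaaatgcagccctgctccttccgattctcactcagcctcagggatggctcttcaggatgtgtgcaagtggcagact
Psmd13, Psmb9 and Psmb11 each held 1 antioxidant response element core, Psmb9 and Psmb11 also held 1 CCAAT box, and Psmd6 held neither. RefSeq promoters were matched for 40 of the 48 members. The antioxidant response element core was found in 22 of those 40 promoters (55%), against 41.4% of all 27025 promoters of the same length. The CCAAT box was found in 14 (35%, against 37.9% of all). Of the heat shock element cores, GAANNTTC was found in 3 members (7.5%, against 7.95%), Psmb9 among them, and TTCNNGAA in 2 (5%, against 8.4%). The cAMP response element TGACGTCA was found in 0 members, against 1.88% of all promoters. These are letter matches on both strands, not measured sites. The printed windows of Psmd13, Psmb9 and Psmb11 lie wholly inside the gene spans given below, which are those of GENCODE and start further upstream. The motifs may overlap one another.

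The maturation table holds TPM (transcript abundances scaled to a fixed total), which are divided by transcript length and carry no read depth. The ovulation table holds estimated counts, in all 11961104 to 16045755 per control library and 10600937 to 19511532 per PFNA library. Values of the ovulation window are given below as CPM, counts scaled to a common library total, which are not divided by gene length. A gene is called higher or lower where its p-value, adjusted over all genes of the window by the Benjamini-Hochberg method, is under 0.05 (limma in the maturation window, edgeR in the ovulation window). Log2 fold changes are PFNA over control, and those of the maturation window are on the log2(TPM + 1) scale. All 8 granulosa cell markers searched, which define the main somatic cell of the follicle, were detected in each of the 4 groups. Markers of several cell types, granulosa cells among them, were called with PFNA, though not of every type in both windows. In the maturation window, 8 of 8 oocyte markers and 6 of 8 granulosa markers were lower, against 16.1% of all genes. Of 3 tested immune markers 1, Cd68, was higher, against 13.3% of all genes. In that window 0 of 7 theca and stroma markers and 0 of 3 tested endothelial markers were called. In the ovulation window, 38% of all genes were higher and 35.2% lower. There, 5 of 8 oocyte, 6 of 8 granulosa and 4 of 7 theca and stroma markers were higher. So were 5 of 5 endothelial and 2 of 6 tested immune markers, the latter a share not above that of all genes. The granulosa marker Inha and the stroma marker Pdgfra were lower. In bulk follicles, fewer cells of a type and less RNA per cell cannot be told apart.

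Libraries of the PFNA group in the maturation window stood apart from one another. The summed level of the 8 oocyte markers was between 82.8 and 130.2 TPM in the 11 controls. It was between 0.683 and 2.82 TPM in PFNA replicates 3 to 9, but 92.0 TPM in replicate 1, 73.4 TPM in replicate 2 and 268 TPM in replicate 10. The counts of called members and the Psmb9 to Psmb6 ratio of this window are therefore also given without replicates 1 and 2. The sums of these 2 libraries lay nearest the controls, and replicate 10 was kept. The same values are given with the share of oocyte transcripts as a covariate. That share was far below every control in PFNA replicates 3 to 9, so covariate and exposure are hard to tell apart.

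In the maturation window, PFNA follicles had lower levels of many proteasome genes and higher levels of none that passed the test. Of the 46 members tested, 22 were lower, against a background of 16.1% of all 13712 genes tested, 0 were higher, against 13.3%, and 24 were not called. Psma8 and Psmb11, core subunits best known from testis and thymus, stayed below a mean of 1 TPM, so no test was run on them. The log2 fold change was below 0 for 43 of the 46. The median over the members was -0.18, a fold of 0.885, against 0.02 over all genes. The shifts were small, and no member had every PFNA library outside the range of the controls, as 0.788% of all genes did on the lower side and 0.489% on the higher. At an unadjusted p under 0.05, limma still found 0 members higher, and 28 lower. Psme4, the PA200 activator, had the highest log2 fold change (0.15, limma adjusted p = 0.157).

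**Figure D1:**
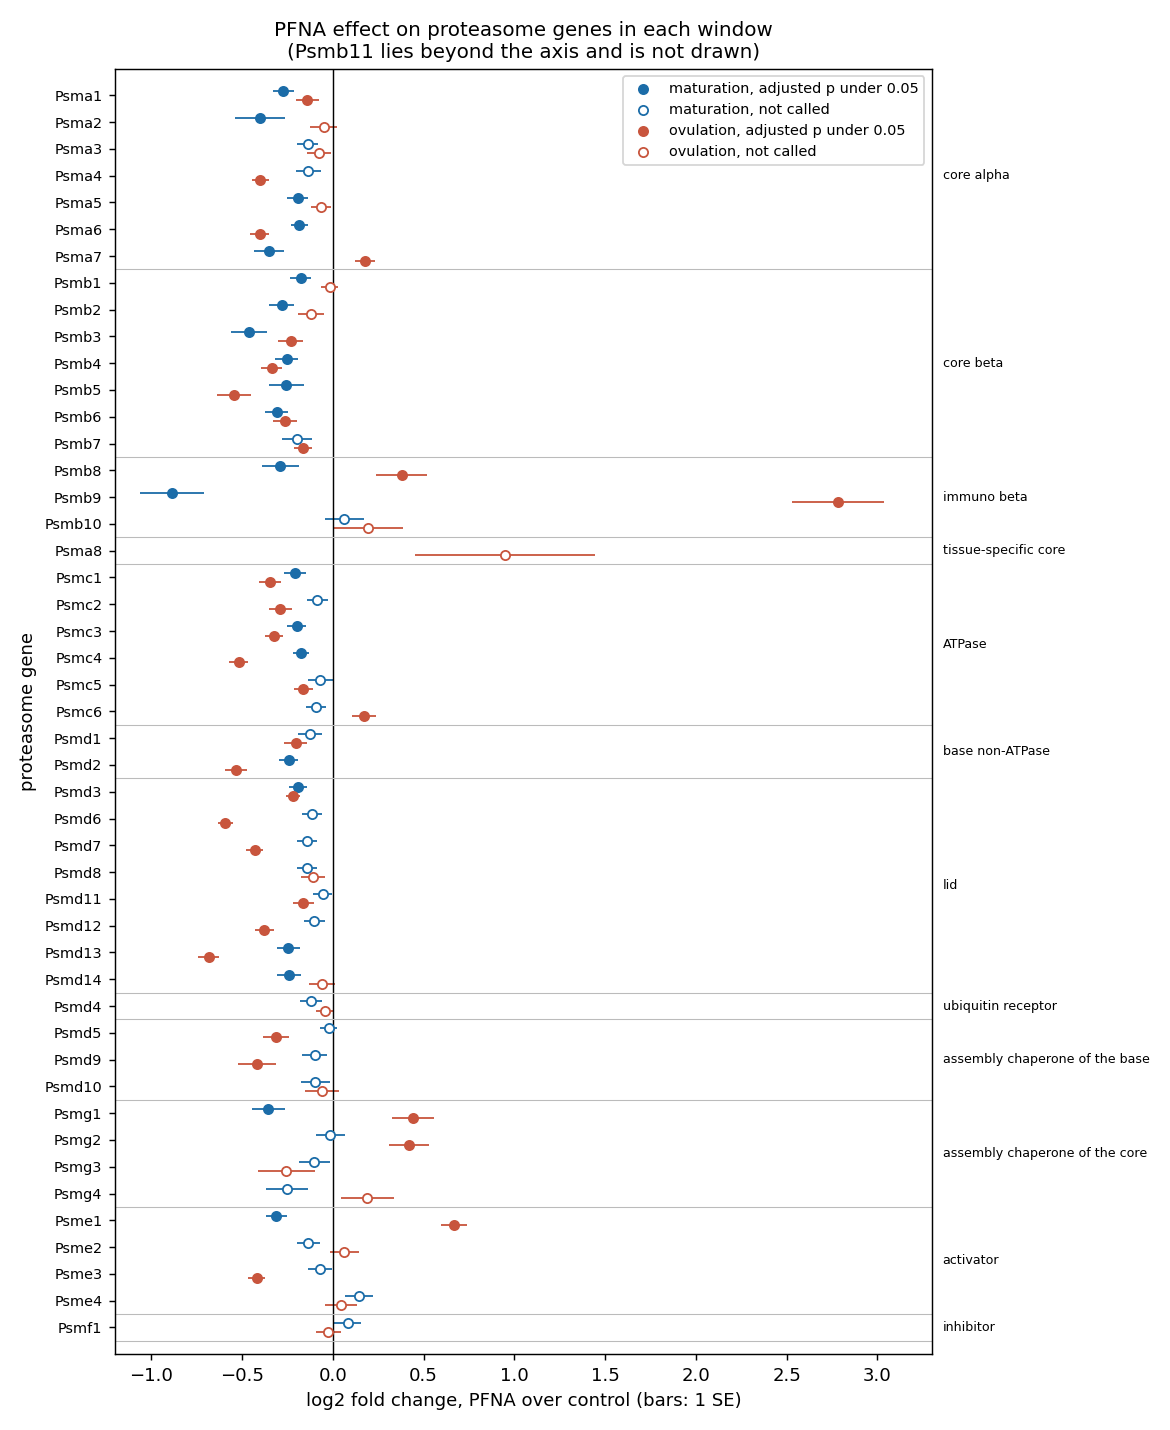
Log2 fold change of PFNA over control (x axis) for each proteasome gene (y axis, grouped by role), in the maturation window (blue) and the ovulation window (red); filled points passed the test, open points did not, and bars are 1 SE. Most points of both windows lie left of 0, and Psmb9 lies at -0.89 in one window and 2.78 in the other; Psmb11, at 6.88 in the ovulation window, is not drawn.

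The core showed the larger share of lower genes in this window. Of the 14 constitutive core genes, 11 were lower with a median log2 fold change of -0.26, and of the 17 constitutive genes of the regulatory particle 7 were lower with a median of -0.14. All 31 of these log2 fold changes were below 0, between -0.06 and -0.46. The difference between core and regulatory particle was not tested. By role, 5 of 7 alpha genes, 6 of 7 beta genes, 3 of 6 ATPase genes and 3 of 8 lid genes were lower. So was 1 of the 2 other base genes, where 16.1% of all genes were lower.

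Psma1, an alpha subunit, was at 82.1, 86.5 and 95.1 TPM (lowest, median and highest) in the controls and at 65.1, 69.2 and 94.8 TPM in the PFNA libraries. Of the 10 PFNA libraries, 8 lay below every control. Its log2 fold change was -0.27 (SE 0.0587, limma adjusted p = 0.00144). Psmb6, the subunit with caspase-like activity, was at 312, 379.7 and 435 TPM in the controls and at 249.6, 306 and 344 TPM with PFNA. Here 7 PFNA libraries lay below every control, and the log2 fold change was -0.31 (SE 0.0622, limma adjusted p = 0.00079). Psmb5, the subunit with chymotrypsin-like activity and the main target of proteasome inhibitor drugs, was at 77.6, 103 and 121 TPM in the controls and at 65.2, 81.1 and 112 TPM with PFNA. Its groups overlapped over most of their range, and its change of -0.26 in log2 (SE 0.0954, limma adjusted p = 0.0474) lost the call in 16 of the 21 fits that left out 1 library. Psmb7, the subunit with trypsin-like activity, was at 16.2, 19.5 and 21.8 TPM in the controls and at 11.99, 16.2 and 21.2 TPM with PFNA, and was not called (log2 fold change -0.20, SE 0.0825, limma adjusted p = 0.0756). The largest fall of a constitutive subunit was that of Psmb3, a beta subunit without a cutting site, which compared 92.4 ± 7.74 TPM (n = 11, SD) with 68.2 ± 16.0 TPM (n = 10, SD) under PFNA, or -0.46 on the log2 scale.

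Among the regulatory particle genes, the ATPase Psmc4 was at 91.7, 101 and 104 TPM in the controls and at 74.2, 89.8 and 96.8 TPM with PFNA. Of the PFNA libraries, 7 lay below every control (log2 fold change -0.18, SE 0.0451, limma adjusted p = 0.00585). Psmd2, the scaffold of the base that docks ubiquitin-binding proteins, was at 186, 222 and 245 TPM in the controls and at 159, 186 and 200.2 TPM with PFNA. Both groups overlapped, with 5 PFNA libraries below every control (log2 fold change -0.24, SE 0.0528, limma adjusted p = 0.00158). The lid scaffold Psmd3 was at 102, 111 and 126 TPM in the controls and at 87.9, 97.4 and 116 TPM with PFNA, 8 libraries being below every control (log2 fold change -0.19, SE 0.0503, limma adjusted p = 0.00635). Psmd14, the lid subunit that cuts off the ubiquitin chain, and Psmd13, another lid subunit, were also lower, each with a log2 fold change of -0.24. The ubiquitin receptor Psmd4 was not called, at 98.2, 109 and 130.1 TPM in the controls and 90.5, 98.0 and 119 TPM with PFNA (log2 fold change -0.12, SE 0.0594, limma adjusted p = 0.131).

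Of the 3 immunoproteasome beta genes Psmb9 and Psmb8 were lower in this window. Of the PA28 pair Psme1 was lower, where 16.1% of all genes were. Psmb9, the immunoproteasome subunit that replaces Psmb6, was at 15.8, 20.4 and 30.5 TPM in the controls and at 5.32, 11.3 and 22.2 TPM with PFNA. Of the PFNA libraries, 8 lay below every control, and the change of -0.89 in log2 (SE 0.176, limma adjusted p = 0.000738) was the lowest of the 46 members. Psme1, the alpha subunit of the PA28 activator, which opens the core independently of ubiquitin, was at 203, 224 and 287 TPM in the controls and at 168, 189 and 211 TPM with PFNA. Again 8 libraries lay below every control, and the log2 fold change was -0.31 (SE 0.0588, limma adjusted p = 0.00046). Psmb8, which replaces Psmb5, was at 31.2, 40.5 and 48.9 TPM in the controls and at 23.6, 33.7 and 43.5 TPM with PFNA, with wide overlap. Its change of -0.29 in log2 (SE 0.103, limma adjusted p = 0.0384) lost the call in 11 of 21 fits without 1 library.

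The partners of these genes were not called. Psmb10, which replaces Psmb7, was at 39.2, 50.6 and 61.8 TPM in the controls and at 35.8, 52.6 and 68.5 TPM with PFNA (log2 fold change 0.06, SE 0.106, limma adjusted p = 0.693). Psme2, the other PA28 subunit, was at 90.4, 99.999 and 122 TPM in the controls and at 79.9, 92.0 and 108 TPM with PFNA (log2 fold change -0.14, SE 0.0637, limma adjusted p = 0.114). Among the assembly chaperones, Psmg1, which helps to build the alpha ring, was lower, at 11.2, 12.5 and 15.5 TPM in the controls and 7.52, 9.79 and 13.6 TPM with PFNA. Of its PFNA libraries 8 lay below every control (log2 fold change -0.35, SE 0.0926, limma adjusted p = 0.00632). The other core chaperones and all 3 base chaperones were not called, the nearest of the latter being Psmd9 at 2.27, 2.77 and 3.45 TPM in the controls and 2.12, 2.53 and 2.97 TPM with PFNA (log2 fold change -0.10, SE 0.0676, limma adjusted p = 0.281). The inhibitor Psmf1 was at 10.9, 12.3 and 14.2 TPM in the controls and at 11.1, 13.2 and 18.3 TPM with PFNA (log2 fold change 0.08, SE 0.0744, limma adjusted p = 0.443).

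These genes varied less among the controls than the median of all genes tested, a comparison that was not matched for expression level. Over the 31 constitutive subunits the coefficient of variation among the 11 control libraries had a median of 6.41%, against 16.97% over all genes tested, and ran from 4.20% for Psma1 to 15.9% for Psma2. Their mean control levels, per transcript length, ran from 8.22 TPM for Psmd14 to 517 TPM for Psmb4. In the ovulation controls the median coefficient of variation was 7.93%, against 17.95% over all genes. The mean log2 difference of the 31 genes from their control means was used as one value per library. In the maturation controls it lay between -0.08 and 0.08 (SD 0.0476, n = 11). With PFNA it was -0.20 ± 0.12 (SD over n = 10), and 8 of the 10 libraries lay below every control.

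**Figure D2:**
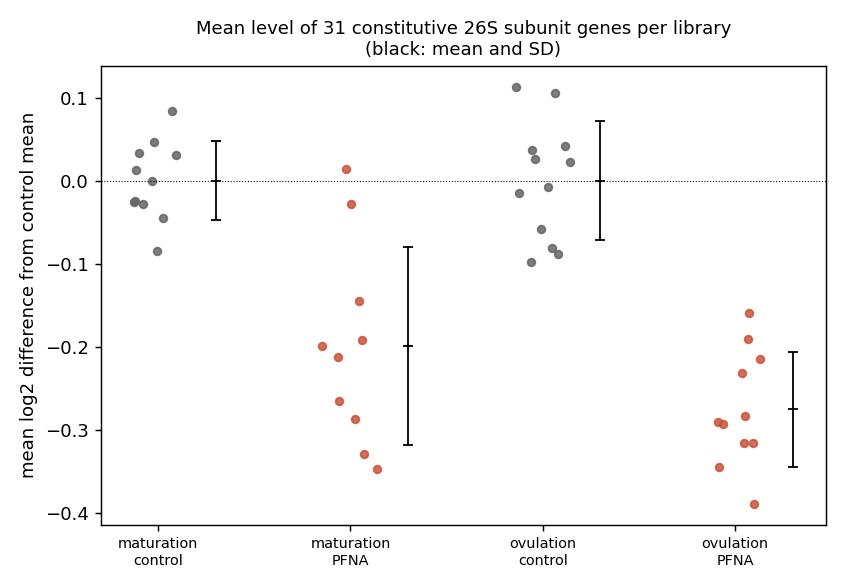
Mean log2 difference of 31 constitutive proteasome genes from their control mean (y axis) for every library of the 4 groups (x axis); black bars are mean and SD. All 11 PFNA libraries of the ovulation window and 8 of 10 of the maturation window lie below every control of their window.

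The 2 PFNA libraries within the range of the maturation controls were replicate 1, at -0.03, and replicate 2, at 0.01, which are also the libraries with oocyte marker sums near the controls. Replicate 10, with the highest oocyte marker sum, was at -0.20. Leaving out replicates 1 and 2 removes the PFNA libraries nearest the controls in this value, so more lower calls are favoured in advance. Without replicates 1 and 2, 28 members were lower, against 19% of all genes, and 0 were higher, against 18.9%, the added ones being Psma3, Psma4, Psmb7, Psmd7, Psmd8 and Psme2, and the median log2 fold change was -0.21. With the share of oocyte transcripts as a covariate, 1 member stayed lower, Psme1 (log2 fold change -0.38, limma adjusted p = 0.0146), the median was -0.08, and 3.3% of all genes were lower and 2.39% higher. Under the same covariate Psmb6 was at -0.28 (limma adjusted p = 0.0644) and Psmb9 at -0.66 (limma adjusted p = 0.112). Without the covariate Psmb6 was at -0.31, Psmb9 at -0.89, Psme1 at -0.31 and the median over the members at -0.18. The covariate largely follows the groups, so neither the lost calls nor the smaller median fall can be ascribed to the oocyte share or to exposure. The granulosa marker sum moved as well, from 38653 to 59271 TPM in the controls to 14521 to 44204 TPM with PFNA, and its part in the result was not tested.

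In the ovulation window the constitutive proteasome genes were also lower with PFNA, whereas a small group rose. Of the 48 members, 24 were lower, against 35.2% of all 13441 genes tested, 8 were higher, against 38% of all genes, and 16 were not called. The median log2 fold change was -0.15, against 0.04 over all genes. Among the 31 constitutive subunits, 21 were lower and 2 were higher, with a median of -0.22. The regulatory particle had 13 of 17 lower and a median of -0.29, and the core had 8 of 14 lower and a median of -0.15. Every one of the 11 PFNA libraries had a lower mean over the 31 genes than every control, at -0.28 ± 0.069 (SD over n = 11) against a control range of -0.10 to 0.11. With the share of oocyte transcripts as a covariate, 22 members were lower, against 35.2% of all genes in that fit, and 9 were higher, against 35.1%.

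The largest falls were those of 2 lid genes, Psmd13 and Psmd6, followed by the core gene Psmb5 and the base genes Psmd2 and Psmc4. Psmd13, at chr7:140881968-140898643 on the plus strand, was at 74.5, 78.8 and 88.9 CPM in the controls and at 39.4, 49.1 and 57.1 CPM with PFNA. The groups did not overlap, and the log2 fold change was -0.68 (SE 0.0569, edgeR adjusted p = 6.74e-11). Psmd6, a lid subunit at chr14:14112174-14120984 on the minus strand, was at 93.5, 101 and 115 CPM in the controls and at 62.2, 64.8 and 69.4 CPM with PFNA, again without overlap. Its log2 fold change was -0.59 (SE 0.0412, edgeR adjusted p = 2.25e-12). Psmd2 was at 431, 496 and 587 CPM in the controls and at 289, 331 and 399 CPM with PFNA. Its groups did not overlap either (log2 fold change -0.53, SE 0.0626, edgeR adjusted p = 3.06e-08). Psmd4 was not called, at 122, 135 and 154 CPM in the controls and 118, 126 and 144 CPM with PFNA (log2 fold change -0.05, SE 0.048, edgeR adjusted p = 0.402). In all, 6 of 8 lid genes and 2 of 2 non-ATPase base genes were lower, against 35.2% of all genes.

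Of the 6 ATPase genes, 5 were lower, against 35.2% of all genes, and Psmc6 was higher, against 38%. Psmc4 was at 118, 136 and 149.7 CPM in the controls and at 80.7, 92.2 and 109.8 CPM with PFNA. These ranges did not overlap (log2 fold change -0.52, SE 0.0545, edgeR adjusted p = 4.33e-09). Psmc6 was at 116, 137 and 147 CPM in the controls and at 121, 147 and 189 CPM with PFNA. The ranges overlapped and the rise was small (log2 fold change 0.17, SE 0.0643, edgeR adjusted p = 0.0197), and it did not pass the test with no filter on low counts or with limma on log2(CPM + 1).

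In the core, 3 of 7 alpha genes and 5 of 7 beta genes were lower, against 35.2% of all genes. The share of the alpha genes was near that of all genes. Psma4, an alpha subunit, was at 92.0, 107 and 117 CPM in the controls and at 74.0, 77.6 and 85.1 CPM with PFNA. Its groups did not overlap (log2 fold change -0.40, SE 0.048, edgeR adjusted p = 4.57e-08). Psma7, another alpha subunit, was higher, at 86.1, 102 and 117 CPM in the controls and 97.9, 113 and 129.8 CPM with PFNA, with overlap (log2 fold change 0.18, SE 0.0557, edgeR adjusted p = 0.00651). The fall of Psma1 (log2 fold change -0.14) lost the call in 16 of 23 fits without 1 library.

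All 3 constitutive cutting subunits were lower, against 35.2% of all genes. Psmb5 was at 28.6, 37.3 and 45.2 CPM in the controls and at 13.4, 25.9 and 29.2 CPM with PFNA. Of the 11 PFNA libraries, 10 lay below every control (log2 fold change -0.55, SE 0.0927, edgeR adjusted p = 9.75e-06). Psmb6 was at 89.4, 109 and 131 CPM in the controls and at 76.5, 86.8 and 103 CPM with PFNA, with 6 libraries below every control (log2 fold change -0.26, SE 0.0659, edgeR adjusted p = 0.000875). Psmb7 was at 113, 131 and 146 CPM in the controls and at 105, 115 and 125 CPM with PFNA (log2 fold change -0.17, SE 0.0496, edgeR adjusted p = 0.00421). Its ranges overlapped, and 3 PFNA libraries lay below every control.

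Across all members, 11 had every PFNA library below every control, against 15.2% of all genes, and they were Psma4, Psma6, Psmc1, Psmc3, Psmc4, Psmd2, Psmd3, Psmd6, Psmd7, Psmd13 and Psme3. Psme3 encodes PA28 gamma, a nuclear activator of the core, and had a log2 fold change of -0.42. The 3 members with every PFNA library above every control were Psmb9, Psmb11 and Psme1, against 11.1% of all genes.

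Psmb9 showed the largest rise after Psmb11. It lies at chr17:34181987-34187764 on the minus strand, in the antigen processing cluster with Psmb8 and the peptide transporter gene Tap1. It was at 0.162, 0.525 and 0.945 CPM in the controls and at 1.75, 3.54 and 5.77 CPM with PFNA, without overlap. The log2 fold change was 2.78 (SE 0.253, edgeR adjusted p = 3.34e-10). These levels rest on 92 counts over the 12 controls and 676 counts over the 11 PFNA libraries. In the GENCODE span given here, Psmb9 shares 212 bases at its start with Tap1 on the other strand. Its printed promoter window, set by a RefSeq start further downstream, holds the start of Tap1. Tap1 rose too, with 10.8 ± 2.26 CPM (SD over n = 12) in the controls and 18.4 ± 3.44 CPM (SD over n = 11) under PFNA, or 0.80 on the log2 scale (SE 0.122, edgeR adjusted p = 2.13e-06). Whether the counting used strand is not given in the sources used here, so reads in the shared bases cannot be told apart.

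Psmb8 was at 4.20, 7.13 and 9.69 CPM in the controls and at 6.68, 8.90 and 12.7 CPM with PFNA. The ranges overlapped, with 4 PFNA libraries above every control (log2 fold change 0.38, SE 0.139, edgeR adjusted p = 0.0169). Psmb10 was not called, at 2.01, 3.91 and 6.25 CPM in the controls and 2.54, 4.37 and 6.69 CPM with PFNA (log2 fold change 0.19, SE 0.193, edgeR adjusted p = 0.373). Psme1, at chr14:55578123-55581529 on the plus strand, was at 27.8, 31.4 and 42.3 CPM in the controls and at 42.7, 51.6 and 57.6 CPM with PFNA, without overlap. Its log2 fold change was 0.67 (SE 0.0709, edgeR adjusted p = 5.28e-09). Its neighbour and partner Psme2, 5911 bases away on the other strand, was not called, at 27.6, 34.7 and 43.0 CPM in the controls and 29.6, 34.4 and 43.4 CPM with PFNA (log2 fold change 0.06, SE 0.0782, edgeR adjusted p = 0.474).

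**Figure D3:**
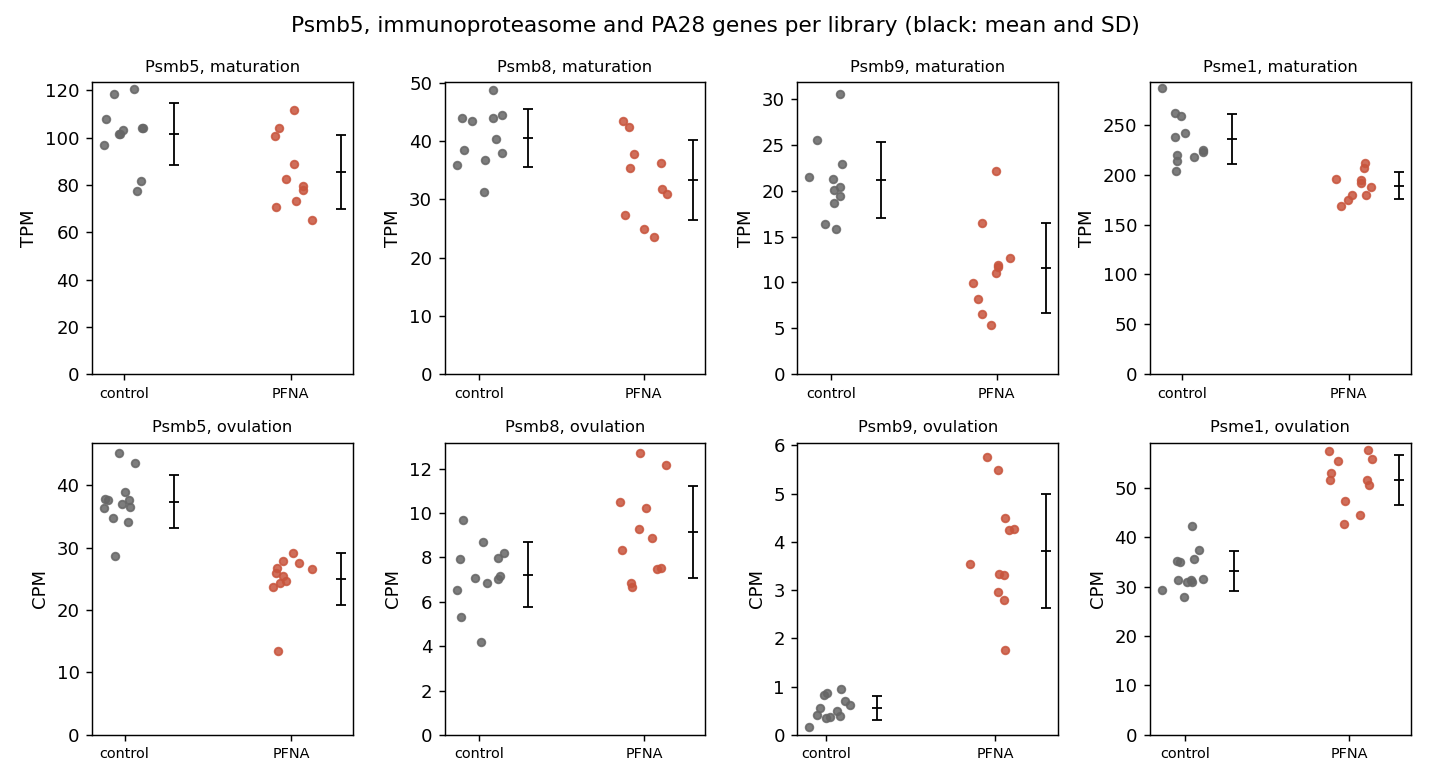
Level of Psmb5, Psmb8, Psmb9 and Psme1 (y axis, TPM in the maturation window above, CPM in the ovulation window below) in every control and PFNA library (x axis); black bars are mean and SD. Psmb9 and Psme1 lie lower with PFNA in the upper row and above every control in the lower row, while Psmb5 lies lower in both.

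Psmb11 encodes a core beta subunit known from the thymic cortex, where it helps to select T cells. It lies at chr14:54621433-54629556 on the plus strand, 3410 bases from Psmb5. In the ovulation controls it had 4 counts in all, with 10 of 12 libraries at 0 and at most 3 counts in a library. With PFNA it had 30, 57 and 127 counts (lowest, median and highest) and 662 in all, so that the groups did not overlap. The ratio of the summed rates was 171, with a 95% interval of 66.7 to 631 that covers counting error only. The fitted log2 fold change was 6.88 (SE 0.504, edgeR adjusted p = 6.27e-12), depends on how near-zero counts are handled, and was 7.996 without control replicate 9, which held 3 of the 4 control counts. In the maturation window Psmb11 was at most 0.562 TPM in the controls and at 0 in all 10 PFNA libraries.

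Cdh24, a cadherin gene that ends 1674 bases from the end of Psmb11 on the other strand, rose in the same libraries, with 3.98 ± 1.29 CPM (SD over n = 12) in the controls and 24.4 ± 4.20 CPM (SD over n = 11), or 2.65 on the log2 scale (edgeR adjusted p = 1.98e-13). Its part in the Psmb11 value was not tested. Psma8, a core subunit best known from testis, was not called, at 0, 0.631 and 2.21 CPM in the controls and 0.312, 1.19 and 4.02 CPM with PFNA (log2 fold change 0.95, SE 0.495, edgeR adjusted p = 0.0874). In all, 10 of the 48 members share bases with another protein-coding gene, leaving aside genes named Gm and a number. Psmg3 shares 2816 bases with a protein-coding gene so named. Psmd13 shares 342 bases with Sirt3, a mitochondrial deacetylase gene on the other strand, which rose (log2 fold change 1.53) while Psmd13 fell.

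The assembly chaperones were called in both directions in this window. Of the 4 core chaperones, Psmg1 and Psmg2, which act as a pair on the alpha ring, were higher, against 38% of all genes. Psmg1 was at 7.94, 10.2 and 13.8 CPM in the controls and at 11.96, 13.8 and 20.2 CPM with PFNA, with overlap (log2 fold change 0.44, SE 0.115, edgeR adjusted p = 0.00134). Psmg2 was 0.42 higher in log2 (SE 0.112, edgeR adjusted p = 0.00171). Of the 3 base chaperones, Psmd5 and Psmd9 were lower, against 35.2% of all genes. The difference between core and base chaperones was not tested. Psmd5 was at 34.0, 38.4 and 46.0 CPM in the controls and at 23.9, 31.7 and 35.9 CPM with PFNA. Its groups overlapped, 8 PFNA libraries being below every control (log2 fold change -0.31, SE 0.0725, edgeR adjusted p = 0.000436). The inhibitor Psmf1 was not called, at 24.7, 29.7 and 32.3 CPM in the controls and 24.4, 28.0 and 38.1 CPM with PFNA (log2 fold change -0.03, SE 0.0681, edgeR adjusted p = 0.743).

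The balance between immunoproteasome and constitutive cutting subunits was measured as the log2 ratio of both genes within each library, which does not depend on how libraries are scaled. Tests are two-sided permutation tests over libraries with 100000 resamples, adjusted over the 6 ratios. In the ovulation window the log2 ratio of Psmb9 to Psmb6 was 3.15 higher with PFNA, in 11 of 11 libraries above every control (adjusted permutation p = 3e-05). That of Psmb8 to Psmb5 was 0.93 higher, in 10 of 11 libraries above every control (adjusted permutation p = 3e-05). Both raw values, 1e-05, are the smallest that these resamples can give. That of Psmb10 to Psmb7 was 0.37 higher (adjusted permutation p = 0.11).

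In the maturation window the log2 ratio of Psmb9 to Psmb6 was -4.16 ± 0.27 (SD over n = 11) in the controls and -4.80 ± 0.59 (SD over n = 10) with PFNA. The difference of -0.64 had an adjusted permutation p of 0.0057, and 7 of 10 libraries lay below every control. The log2 ratio of Psmb8 to Psmb5 differed by -0.04 (adjusted permutation p = 0.68), and that of Psmb10 to Psmb7 by 0.27 (adjusted permutation p = 0.057). Without PFNA replicates 1 and 2, the Psmb9 to Psmb6 difference was -0.82 (adjusted permutation p = 2e-05) and that of Psmb10 to Psmb7 was 0.33 (adjusted permutation p = 0.031). With the share of oocyte transcripts as a covariate, the Psmb9 to Psmb6 difference was -0.43 and did not pass (adjusted permutation p = 0.15). The levels of the ratios are not compared between windows, because CPM are not divided by length.

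**Figure D4:**
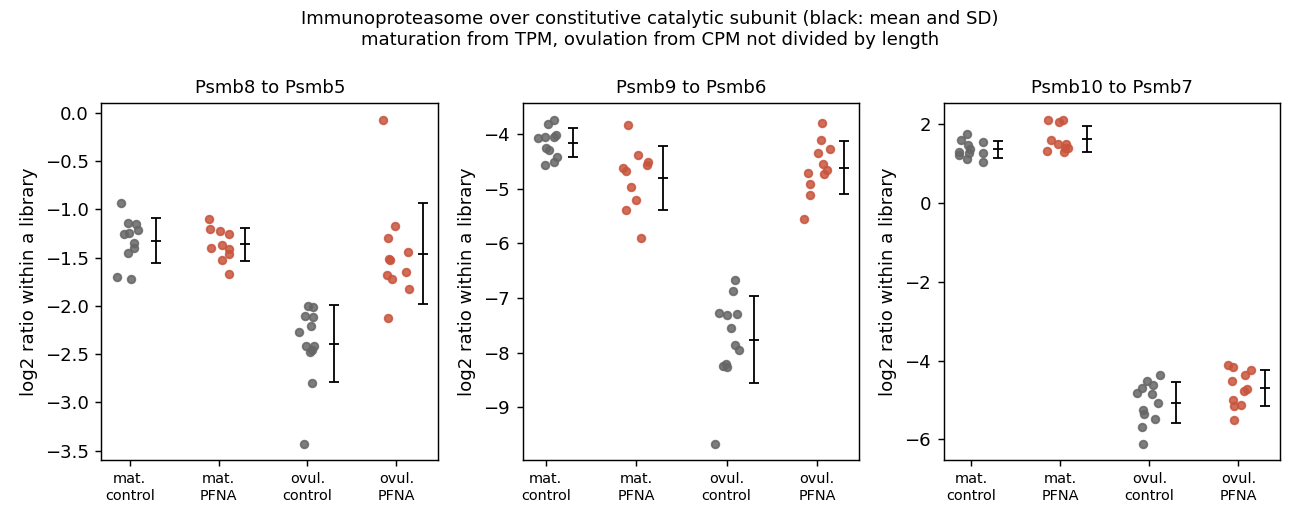
Log2 ratio of each immunoproteasome gene to the constitutive gene it replaces (y axis) in every library of the 4 groups (x axis), from TPM in the maturation window and CPM in the ovulation window; black bars are mean and SD. The ratio of Psmb9 to Psmb6 lies lower with PFNA in maturation and above every control in ovulation.

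Called genes were then set side by side over the 46 members tested in both windows, which share no libraries. Lower in both windows were 12 members, against 6.01% of the 11215 genes tested in both. They were Psma1, Psma6, Psmb3, Psmb4, Psmb5, Psmb6, Psmc1, Psmc3, Psmc4, Psmd2, Psmd3 and Psmd13. All 12 lost their maturation call with the share of oocyte transcripts as a covariate. Lower in maturation and higher in ovulation were 5 members, against 7.64%, namely Psma7, Psmb8, Psmb9, Psme1 and Psmg1. Of these, only Psme1 kept its maturation call under that covariate. Higher in both were 0 (against 6.06%), and higher in maturation and lower in ovulation were 0 (against 5.11%). Across the 46 genes the Spearman correlation of the effects was -0.10, a description over genes that are not independent, against -0.02 over the 11130 genes in that comparison.

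The difference between the effects was tested for each gene, on log2(CPM + 1) less log2(TPM + 1). Adding 1 shrinks effects at low levels, and the ovulation effect of Psmb9 was 1.60 on this scale but 2.78 by edgeR. The PFNA effect was higher in the ovulation window for 7 members, against 30.8% of all genes, and lower for 13 members, against 37.6%. With median-ratio size factors the counts were 12 higher, against 34.1%, and 10 lower, against 34.2%, so that the balance turned. Without maturation PFNA replicates 1 and 2 they were 14 higher, against 30.9%, and 12 lower, against 38.1%. The 3 higher members with the smallest p were Psmb9, whose effects differed by 2.49 (SE 0.223, limma adjusted p = 1.03e-12), Psme1, by 0.93 (SE 0.0903, limma adjusted p = 2.37e-12), and Psmg1, by 0.74 (SE 0.141, limma adjusted p = 1.13e-05). On the lower side they were Psmd6, by -0.51 (SE 0.0685, limma adjusted p = 2.79e-08), Psmd13, by -0.47 (SE 0.0853, limma adjusted p = 6.72e-06), and Psmc4, by -0.37 (SE 0.0697, limma adjusted p = 8.76e-06). Of the 31 constitutive subunits, 10 had a lower and 2 a higher effect in the ovulation window, and 19 were not called different. The window and the unit of its table cannot be told apart in these differences.

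**Figure D5:**
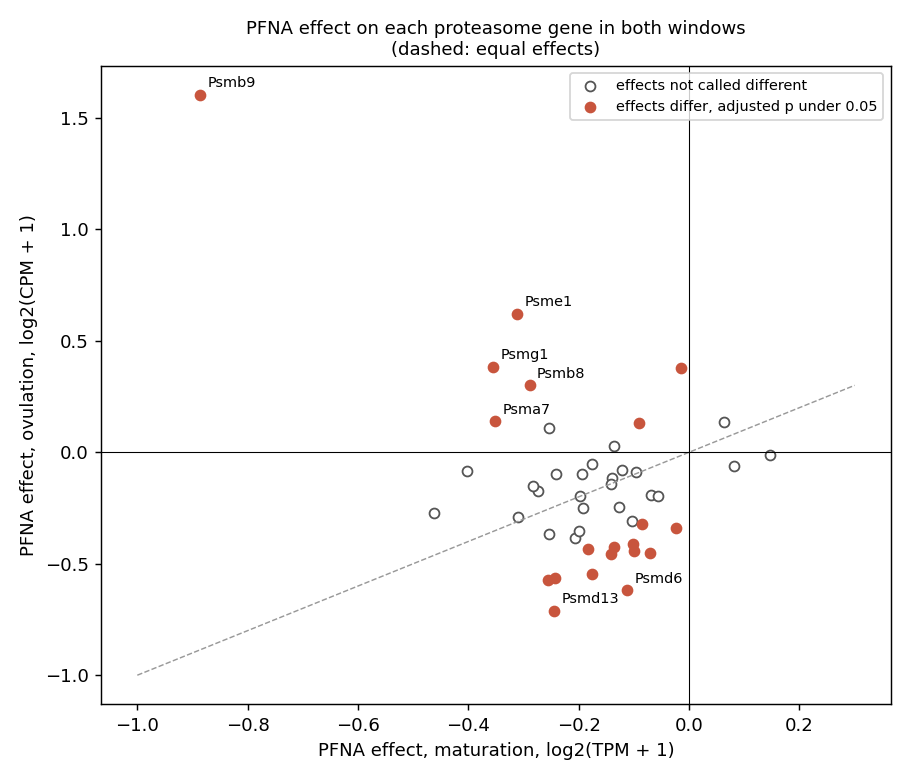
PFNA effect on each of 46 proteasome genes in the maturation window (x axis, log2(TPM + 1)) and the ovulation window (y axis, log2(CPM + 1)); filled points are genes whose effects differed with an adjusted p under 0.05, and the dashed line marks equal effects. Psmb9, Psme1, Psmg1, Psmb8 and Psma7 lie left of 0 and above 0, and most constitutive subunits lie left of 0 and below 0.

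Genes that work with the proteasome were counted list by list, to be read against the share of all genes called higher and lower, 13.3% and 16.1% in maturation and 38% and 35.2% in ovulation. With the share of oocyte transcripts as a covariate in maturation, Zfand5, Hspa1a, Fkbp4 and Gclc kept their calls, and Adrm1, Ecpas, Ddi2, Ngly1, Gclm, Gabarapl1 and Atg5 did not. Without PFNA replicates 1 and 2 the partner proteins lower in maturation came to 3 and the autophagy genes higher came to 8. Of 9 partner proteins tested, 1 was higher and 1 lower in the maturation window, and 1 was higher and 6 lower in the ovulation window. In maturation, the ubiquitin receptor Adrm1 fell (log2 fold change -0.14, limma adjusted p = 0.0245) and Ecpas, a scaffold that tethers the complex, rose (0.20, limma adjusted p = 0.0445). In ovulation, the deubiquitinase Uchl5, which docks on the base, fell by 0.89 on the log2 scale (edgeR adjusted p = 1.17e-11), and Txnl1, a thioredoxin bound to the lid, rose (0.29, edgeR adjusted p = 0.000804). Pomp, the maturation factor of the core, was at 30.9 ± 2.56 TPM (SD over n = 11) and 27.9 ± 2.90 TPM (SD over n = 10) in maturation and was not called (limma adjusted p = 0.0699). In ovulation Pomp was lower, at 85.1 ± 9.31 CPM (SD over n = 12) against 51.4 ± 5.48 CPM (SD over n = 11), with all 11 PFNA libraries below every control (log2 fold change -0.69, edgeR adjusted p = 1.76e-09).

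Of 18 genes that regulate proteasome transcription or deliver substrates, 2 were higher and 3 lower in maturation, and 4 were higher and 11 lower in ovulation. Nfe2l1, the factor known to raise proteasome genes when the complex is blocked, was not called in maturation (log2 fold change 0.18, limma adjusted p = 0.13) and was lower in ovulation (log2 fold change -0.25, edgeR adjusted p = 0.0159). Nfe2l2, the oxidative stress factor, was not called in maturation (0.04, limma adjusted p = 0.816) and was lower in ovulation, from 146 ± 15.7 CPM (SD over n = 12) to 79.1 ± 11.9 CPM (SD over n = 11), with a log2 fold change of -0.85 (edgeR adjusted p = 7.89e-10). Ddi2, the protease that activates NFE2L1, fell in both windows (log2 fold change -0.51 and -0.65). Ngly1, which strips sugars from NFE2L1, rose in both, by 0.38 in maturation (limma adjusted p = 0.00132) and 1.89 in ovulation (edgeR adjusted p = 1.21e-13). Zfand5, an activator of the complex, rose in maturation (0.37, limma adjusted p = 3.78e-05) and fell in ovulation (-0.57, edgeR adjusted p = 5.02e-05).

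Of 6 genes for ubiquitin and its activating enzymes, 1 was higher and 0 lower in maturation (1 lower at an unadjusted p under 0.05 by limma), and 4 were higher and 1 lower in ovulation. Uba1, the main ubiquitin-activating enzyme, was lower in ovulation (log2 fold change -0.52, edgeR adjusted p = 3.9e-10). Of 19 heat shock response genes, 9 were higher (against 13.3% of all genes) and 2 lower (16.1%) in maturation, and 16 were higher (38%) and 2 lower (35.2%) in ovulation. The inducible chaperone Hspa1a rose by 2.15 in maturation (limma adjusted p = 9.46e-05), and its copy Hspa1b rose by 7.08 in ovulation (edgeR adjusted p = 2.31e-19), though reads of these near-identical genes cannot be told apart. Fkbp4, a cochaperone, fell in both (log2 fold change -0.30 and -0.95). Hsf1, the factor that drives this response, was not called in maturation (-0.09, limma adjusted p = 0.198) and was lower in ovulation (-0.23, edgeR adjusted p = 0.00496).

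Of the oxidative targets of NFE2L2, 4 of 9 tested were higher and 1 lower in maturation, and 5 of 10 were higher and 4 lower in ovulation, where 38% and 35.2% of all genes were. The glutathione synthesis gene Gclc rose in maturation (log2 fold change 0.60) while its partner Gclm fell (-0.24), and in ovulation the heme oxygenase gene Hmox1 rose (1.46) while Gclc fell (-1.001). Of the antigen processing and interferon genes, 2 of 11 tested were higher and 0 lower in maturation (2 lower at an unadjusted p under 0.05 by limma), and 6 of 13 were higher and 2 lower in ovulation. The interferon response factor Irf9 fell in ovulation (log2 fold change -1.25). Tap1 was not called in maturation (-0.36, limma adjusted p = 0.0701), but was called lower there without PFNA replicates 1 and 2. Immune markers are given beside these genes: in the ovulation window their summed level was between 1.36 and 104 CPM in the controls and between 2.74 and 136 CPM with PFNA, and their part in the immunoproteasome values was not tested. Of the autophagy genes, 3 of 15 were higher and 2 lower in maturation, and 5 of 16 were higher and 3 lower in ovulation, where 38% and 35.2% of all genes were. Among them Gabarapl1, which coats autophagosomes, rose in maturation (0.62) and Atg5 fell (-0.30), and in ovulation the receptor Sqstm1 rose (0.84) and Ulk1, the starting kinase, fell (-0.31).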

How the data were processed

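RNA sequencing of poly-A RNA from mouse ovarian follicles was analysed in 44 libraries, grouped by their labels. The authors deposited 1 gene table per window, both named as raw counts. From the values, the deposited maturation table holds TPM: each of its 21 libraries sums to 1e+06, 83.5% of the values are not whole, and its control means fall with transcript length relative to the ovulation table (slope -1.25 over 7644 genes). The deposited ovulation table holds estimated counts (18.5% not whole), which were rounded before testing. The submitters' processing notes name Partek, Bowtie2 and HISAT2, with no role. The counting step, the annotation and any use of strand are not given in the sources used here. One maturation control column differs by 1 letter from its sample's title and was taken as that sample, replicate 6. Maturation control replicate 4 is not analysed here. All columns of values were used.

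Maturation values were tested with limma 3.58.1 (trend, robust) on log2(TPM + 1) where a gene averaged 1 TPM or more. Ovulation counts were tested with the quasi-likelihood test of edgeR 4.0.16 (filterByExpr, TMM, robust), in R 4.3.3. The difference between windows was taken from limma fits within each table, with Satterthwaite degrees of freedom, where a gene averaged 1 TPM and 1 CPM or more. P-values were adjusted by the Benjamini-Hochberg method over all genes tested. DESeq2 1.42.0, other scalings, filters and pseudocounts, an oocyte covariate, a replicate block and leaving out each library were tried as alternatives. The tests were checked on simulated data, where many changes of the smaller simulated size were missed and the edgeR calls held more false ones than the threshold allows. No pair of libraries was a duplicate (highest correlation 0.991). The depth behind a TPM value is unknown, and the ovulation depths of 10600937 to 19511532 counts set the precision there.

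Members, roles, lists and motifs were chosen with earlier results of these data known. Values per library are given for the 3 higher and 3 lower members with the smallest p among those called in a window, the member of each role with the smallest p, the cutting subunits, the immunoproteasome genes and the PA28 genes, and statistics of the difference between windows for the 3 with the smallest p in each direction. Of the pathway lists, the gene with the smallest p is named for either direction of each window, with Nfe2l1, Nfe2l2, Hsf1 and Pomp; 2 genes this rule names are counted in their lists but not reported here. Psmb3, Psmd13, Psmd14 and Psme4 in the maturation window, Psma1, Psma7, Psmc6, Psmg2, Psme3 and Psma8 in the ovulation window, and Tap1, Gclm, Ngly1, Ddi2, Cdh24 and Sirt3 where the rule does not name them, were added after their values were seen. Coordinates are on GRCm38 and were the same as in GENCODE M21 for all 48 members. Promoters are from RefSeq (GRCm38.p6). For the ratios, the covariate was fitted with a Freedman-Lane permutation test. Ratios used Python 3.11.15 with scipy 1.17.1.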

Additional observations from a re-analysis of the deposited data

Results flagged for a closer look

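In the PFNA group of the maturation window, 5 of 52 tests of a group's highest or lowest library found a value far from the others, where chance gives about 1 in 20, or 2.6. Replicate 2 stood high for the alpha subunit Psma5 (29.7 TPM, the next library at 24.3) and for the lid subunit Psmd8 (180.2 TPM, next 149). Replicate 10 stood high for the activators Psme3 (138 TPM, next 116) and Psme4 (17.9 TPM, next 14.5). Replicate 3 stood low for the chaperone Psmg2 (11.1 TPM, next 15.5).

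The PFNA effect differed between the windows for 20 members by limma. It was higher in the ovulation window for 7, against 30.8% of all genes, and lower for 13, against 37.6%. Neither share is above that of all genes. The effect in the ovulation window less that in the maturation window was above 0 for Psmb9 (2.49), Psme1 (0.93), Psmg1 (0.74), Psmb8 (0.59), Psma7 (0.49), Psmg2 (0.39) and Psmc6 (0.22). It was below 0 for the core subunits Psma4 (-0.29), Psma6 (-0.25) and Psmb5 (-0.32), and for the ATPases Psmc2 (-0.24) and Psmc4 (-0.37). It was also below 0 for the base and lid subunits Psmd2 (-0.32), Psmd6 (-0.51), Psmd7 (-0.32), Psmd12 (-0.31) and Psmd13 (-0.47), the chaperones Psmd5 (-0.32) and Psmd9 (-0.34), and the activator Psme3 (-0.38).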

How the results depend on the processing

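Of 679 recomputed values, 647 were labelled the same, 17 no longer passed the threshold, 11 newly passed it, 4 moved and 0 reversed. A count was labelled the same if it stayed within a set fold of the main count. A median was labelled the same if it moved by less than the SD of the control library scores. For a gene or ratio, a change of sign between values that did not pass was also labelled the same. With the share of oocyte transcripts as a covariate, 1 member was lower in maturation, the median log2 fold change over all 46 tested members was -0.081, and the Psmb9 to Psmb6 log2 ratio differed by -0.43 and no longer passed. Members with a higher effect in ovulation came to 12 with median-ratio size factors (10 lower) and to 14 without maturation PFNA replicates 1 and 2 (12 lower), where the Psmb10 to Psmb7 log2 ratio in maturation, 0.33 higher, newly passed. The cause was not tested.

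Leaving out each library in turn gave 0 to 0 members higher and 18 to 27 lower in maturation (median -0.19 to -0.15), 8 to 9 higher and 23 to 25 lower in ovulation (median -0.17 to -0.14), and 7 to 10 higher and 12 to 15 lower effects in ovulation. The log2 ratio of Psmb8 to Psmb5 ran from -0.08 to 0.00056 in maturation and from 0.80 to 1.002 in ovulation, and that of Psmb9 to Psmb6 from -0.75 to -0.52 and from 2.98 to 3.25. That of Psmb10 to Psmb7 ran from 0.22 to 0.31 in maturation, where it passed the permutation test without control replicates 8 or 12 or PFNA replicates 2, 4, 5 or 6, and from 0.27 to 0.45 in ovulation, where it passed without PFNA replicate 3.

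Replicate numbers did not pair the libraries (same-numbered libraries correlated at -0.14 to 0.17 in maturation and -0.19 to 0.07 in ovulation). With the replicate block, 15 members were lower and 0 higher in maturation (median -0.16; Psma2, Psma5, Psmb1, Psmb5, Psmb8, Psmc1, Psmc4 and Psmd14 lost the call and Psmd1 gained it). In ovulation 24 were lower and 7 higher (median -0.16; Psmc6 lost it), and 7 higher and 13 lower effects were found between windows. For the ratios, an exact sign-flip permutation test within same-numbered libraries served as the replicate block. It changed 1 call, Psmb10 to Psmb7 in ovulation, which differed by 0.43 and newly passed (adjusted exact p = 0.047). The alternatives for the ratios other than the pseudocount and leaving out single libraries were chosen after seeing the data. Depth is unknown in the maturation window and limits Psmb11, Psma8 and Psmb9 in the ovulation window.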
